A study of Mus musculus with 8 samples.

Results

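Galectins bind sugars on glycoproteins, S100 proteins are small calcium sensors, and annexins dock on membranes when calcium rises; Vim encodes vimentin, the intermediate filament of lymphocytes and mesenchymal cells. Transcripts of 9 such genes (Lgals1, Lgals3, S100a4, S100a6, S100a10, S100a11, Anxa1, Anxa2 and Vim) are described here in invariant natural killer T (iNKT) cells of the mouse, out of 22549 genes in the deposited table. The genes were named by symbol, and the choice used values measured in these same libraries, those of skin against spleen. Their levels are therefore a description, and the calls given for them below are no test. The 9 rows were all found and all 9 passed the filter on low counts.

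RNA was sequenced from iNKT cells of the skin (4 libraries) and of the spleen (4 libraries), and the comparison asks how the transcriptomes of iNKT cells differ between these tissues. Every mouse, in both tissues, had the genotype CCR10+/EGFP, with 1 Ccr10 allele carrying EGFP, so no group without the reporter allele was compared. The labels used here give neither the age of the mice nor how the cells were gated, and they do not say that libraries came from separate animals, so p-values cover no more than the spread of these libraries, part or all of which may be technical. Library totals ran from 7191131 to 9791973 expected counts. A count above 0 was found for 5302 to 6012 genes in skin libraries and for 6415 to 10094 genes in spleen libraries. All 7 T and iNKT lineage markers had a count in at least 1 library of each tissue. Cd247 was at 0 in skin replicate 4 and spleen replicates 1 and 2, and Cd5 in skin replicate 1. The summed level of the 7 was 1988 to 2633 CPM in skin libraries and 2859 to 3572 CPM in spleen libraries. CPM are counts scaled to a common library total. They compare 1 gene between libraries and, not being divided by transcript length, do not rank genes against each other.

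In T cells, Lgals1 and Lgals3 are known for binding surface glycoproteins and tuning receptor signalling and survival. S100a10 is a partner of Anxa2, and S100a11 of Anxa1: an S100 dimer holds a pair of annexin molecules and so links membranes. S100a4, S100a6, S100a10, Anxa2, Lgals1 and Vim are often found together in antigen-experienced and tissue-dwelling lymphocytes. Several of them, not all in each cell type, are also abundant in keratinocytes, fibroblasts or macrophages. In bulk RNA, fewer cells of a type and less RNA per cell cannot be told apart.

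The regions upstream of the start sites show how the genes differ in their core promoter letters. RefSeq (GRCm38.p6) windows of 250 bases upstream of the start were at hand for 7 of the 9 genes. Lgals1 and S100a10 were not among them. Windows are shown for Anxa2 and S100a4, whose levels differed most between the tissues, and for S100a11 and S100a6, neighbours of the S100 group with smaller differences. Capitals mark matches, on either strand, to TGANTCA (the AP-1 site), GGGCGG (the GC box), TATAAA (the TATA box) and TGTGGT (the RUNX site). No matches overlapped. The windows are chr9:69453433-69453682 for Anxa2, chr3:90603520-90603769 for S100a4, chr3:93520246-93520495 for S100a11 and chr3:90612644-90612893 for S100a6, all on the + strand.
Anxa2: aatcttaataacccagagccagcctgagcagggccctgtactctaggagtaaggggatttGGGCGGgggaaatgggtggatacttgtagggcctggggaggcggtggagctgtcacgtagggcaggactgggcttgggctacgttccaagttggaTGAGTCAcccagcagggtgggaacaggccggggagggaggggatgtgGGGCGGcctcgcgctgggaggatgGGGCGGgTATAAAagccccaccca
S100a4: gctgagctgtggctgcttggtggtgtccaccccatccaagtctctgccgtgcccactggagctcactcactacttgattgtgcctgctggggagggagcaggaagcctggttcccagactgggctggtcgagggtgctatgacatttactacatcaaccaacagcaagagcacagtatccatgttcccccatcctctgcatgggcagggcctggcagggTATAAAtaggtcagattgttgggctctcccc
S100a11: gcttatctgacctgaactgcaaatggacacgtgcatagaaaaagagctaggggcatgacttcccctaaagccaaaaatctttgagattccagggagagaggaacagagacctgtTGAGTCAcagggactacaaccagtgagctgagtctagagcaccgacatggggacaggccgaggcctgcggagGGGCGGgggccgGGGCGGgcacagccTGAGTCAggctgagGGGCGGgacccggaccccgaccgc
S100a6: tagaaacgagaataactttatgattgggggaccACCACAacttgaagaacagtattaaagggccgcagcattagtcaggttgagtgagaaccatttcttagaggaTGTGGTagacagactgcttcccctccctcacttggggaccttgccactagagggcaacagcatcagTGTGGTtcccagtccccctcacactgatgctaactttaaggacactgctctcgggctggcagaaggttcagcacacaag
The AP-1 letters stood in 2 of the 7 windows, once in Anxa2, 95 bases before the start, and in 2 places in S100a11; they stood in 6.75% of all 32851 windows of this length. The TATA box stood in 4 windows, those of S100a4, Anxa1, Anxa2 and Vim, and in 12.4% of all windows. In S100a4 it began 31 bases before the start. GC boxes were found in Lgals3, S100a11 and Anxa2, with 3 matches each in S100a11 and Anxa2, and in 32.7% of all windows. The RUNX letters occurred in 3 places in S100a6 and in no other of the 7, against 4614 of all 32851 windows. Genes with the largest and the smallest skin excess (Anxa2 and S100a11) thus both carry AP-1 letters and GC boxes. These are matches of letters, not measured sites.

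Both galectin genes among the 9, Lgals1 and Lgals3, stood higher in skin libraries than in spleen libraries. Lgals1 encodes galectin-1, a dimeric lectin that is secreted by activated T cells. It stood at 2037, 1590.5, 1285 and 1132 CPM in skin replicates 1 to 4 and at 435, 382, 384 and 448 CPM in spleen replicates 1 to 4. Every skin library was above every spleen library, and the spleen values lay close together. The means were 1511 ± 399 CPM in skin libraries and 412 ± 34.3 CPM in spleen libraries (SD, n = 4 each), a 3.67-fold difference and a log2 fold change of 1.87 ± 0.22 (SE). Leaving out each library in turn gave log2 fold changes of 1.67 to 1.94.

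Lgals3 encodes galectin-3, which has a single sugar-binding domain and a tail through which it forms lattices on the cell surface. It stood at 1312, 707, 396 and 733 CPM in skin libraries and at 147, 176, 47.2 and 102 CPM in spleen libraries. The tissues did not overlap, although skin replicate 1 was more than 3 times skin replicate 3. The means were 787 ± 382 CPM in skin libraries and 118 ± 56.3 CPM in spleen libraries (SD, n = 4 each), a 6.66-fold difference. Lgals3 counts per Lgals1 count were 0.644, 0.445, 0.308 and 0.647 in skin and 0.339, 0.461, 0.123 and 0.228 in spleen. This ratio overlapped between the tissues.

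**Figure D1:**
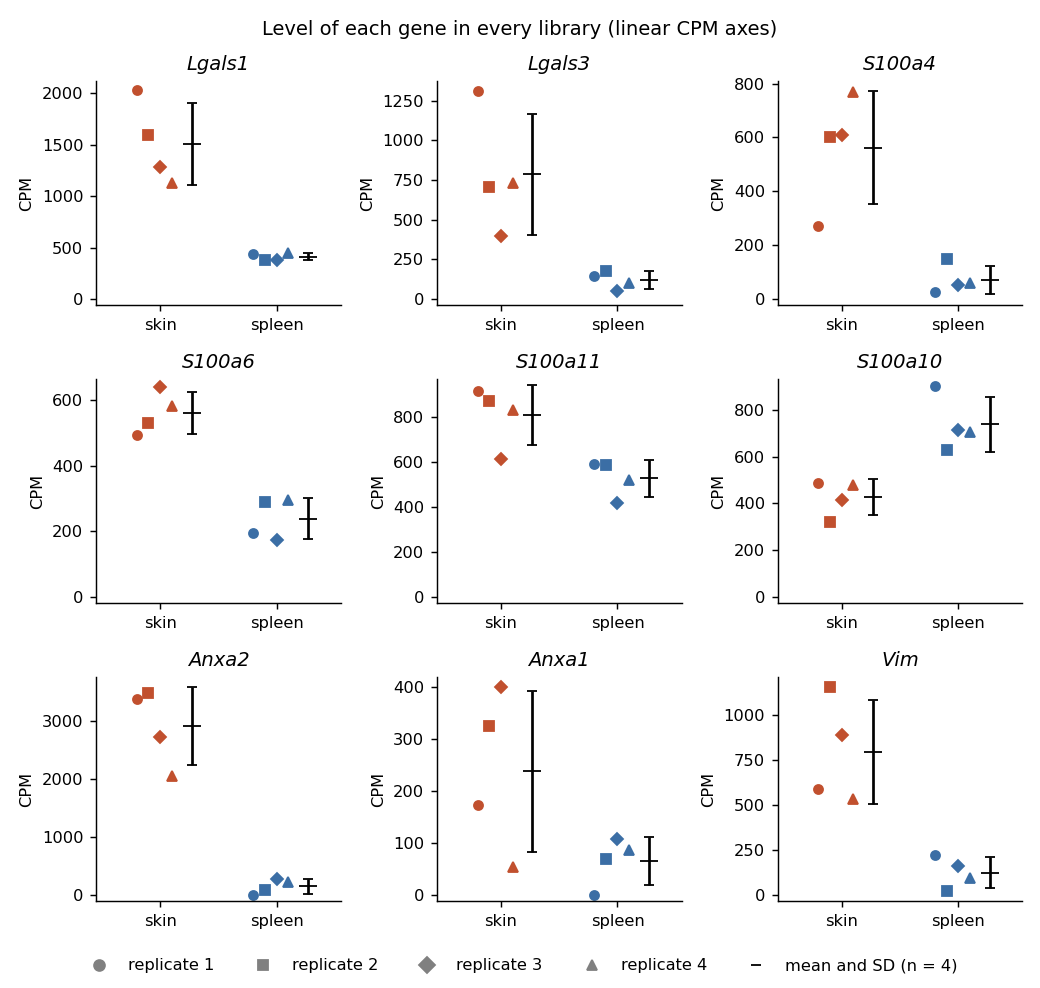
Level of the 9 genes in every library, in CPM on linear axes, with skin libraries left and spleen libraries right of each panel; symbols are replicates, and the bar beside them gives the mean and SD of 4 libraries. Skin lies above spleen without overlap for Lgals1, Lgals3, S100a4, S100a6, S100a11, Anxa2 and Vim, below it for S100a10, and overlaps it for Anxa1.

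The 4 S100 genes did not move alike. S100a4, whose protein binds non-muscle myosin and is linked to cell motility, had the largest fold difference of the 4. Its skin libraries held 271, 600.4, 609 and 770.1 CPM and its spleen libraries 24.3, 147, 50.2 and 59.6 CPM. Skin replicate 1 was the lowest of the skin libraries and still above spleen replicate 2, the highest of the spleen. The mean was 7.99-fold higher in skin (563 ± 209 against 70.4 ± 53.5 CPM, SD, n = 4 each). Its log2 fold change was 2.999, and 2.71 to 3.64 with each library left out in turn, the highest without spleen replicate 2. S100a6, or calcyclin, a calcium sensor of proliferating cells, stood at 493, 531, 642 and 582 CPM in skin libraries and at 196, 289.7, 174 and 296 CPM in spleen libraries. The tissues did not overlap, and with a coefficient of variation of 11.5% its skin values were the most even of the 9 genes. Its mean was 2.35-fold higher in skin (log2 fold change 1.23 ± 0.27, SE).

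S100a11 and S100a10 showed smaller differences of opposite sign. S100a11, the partner of Anxa1, stood at 915, 867, 613 and 831 CPM in skin libraries and at 591, 584, 415 and 517 CPM in spleen libraries. The groups did not overlap, with skin replicate 3 only just above spleen replicate 1. The mean was 1.53-fold higher in skin (log2 fold change 0.61 ± 0.21, SE). S100a10, or p11, has lost calcium binding and holds Anxa2 in a constitutive complex. It stood at 489.7, 321, 417 and 481 CPM in skin libraries and at 904, 629, 716 and 705 CPM in spleen libraries. It was the 1 gene of the 9 with every skin library below every spleen library. The mean was 427 ± 77.7 CPM in skin libraries and 738 ± 117 CPM in spleen libraries (SD, n = 4 each), 1.73-fold lower in skin, with a log2 fold change of -0.79 ± 0.23 (SE). It stayed between -0.90 and -0.68 in all 16 alternative settings, scalings included.

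On mouse chromosome 3 most S100 genes lie in a pair of groups, which the choice of the 9 genes did not use. In the RefSeq gene order S100a4 and S100a6 are separated by S100a5, and S100a3 lies nearby; neither S100a3 nor S100a5 had a count in any library. S100a11 and S100a10 are direct neighbours, 56 protein-coding genes away from S100a9, the nearest other S100 gene. The neighbours S100a11 and S100a10 thus differed in opposite directions between the tissues, while S100a4 and S100a6 were both higher in skin.

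Anxa2 differed most of the 9 genes. Its protein binds acidic membrane lipids in a calcium-dependent way and takes part in exocytosis, membrane repair and cell-surface plasminogen activation. It stood at 3378, 3483, 2725 and 2041 CPM in skin libraries and at 0, 86.2, 276 and 221 CPM in spleen libraries. The lowest skin library was over 7 times the highest spleen library. The means were 2907 ± 667 CPM in skin libraries and 146 ± 126 CPM in spleen libraries (SD, n = 4 each), a 19.9-fold difference. The log2 fold change was 4.32 ± 1.48 (SE), and 3.89 to 4.83 with each library left out in turn. Spleen replicate 1 had no Anxa2 count. Among 1206 other genes within 1.5-fold of the Anxa2 mean of spleen replicates 2 to 4 and detected in all 3, 7.71% were at 0 in spleen replicate 1.

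Anxa1 encodes a glucocorticoid-induced protein that dampens inflammation through formyl peptide receptors and also modulates T cell receptor signalling. It stood at 173, 325, 399 and 53.2 CPM in skin libraries and at 0, 69.8, 107 and 85.6 CPM in spleen libraries. It was the 1 gene of the 9 whose tissues overlapped, through skin replicate 4. The means were 238 ± 155 CPM in skin libraries and 65.7 ± 46.4 CPM in spleen libraries (SD, n = 4 each), a log2 fold change of 1.86 ± 1.504 (SE). Of 1902 genes at a like level in spleen replicates 2 to 4, 21.4% were at 0 in spleen replicate 1, where Anxa1 also had no count.

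Each annexin was set beside its S100 partner by the ratio of their counts within a library, in which library size cancels. Anxa2 counts per S100a10 count were 6.90, 10.8, 6.54 and 4.25 in skin and 0, 0.137, 0.385 and 0.314 in spleen. The numbers are not per length, so they show how the ratio moved and not how many molecules of each were present. The lowest skin ratio was over 11 times the highest spleen ratio, with Anxa2 higher and S100a10 lower in skin. S100a11 counts per Anxa1 count were 5.28, 2.67, 1.53 and 15.6 in skin and 8.36, 3.87 and 6.04 in spleen replicates 2 to 4, with no value for spleen replicate 1. This ratio overlapped between the tissues.

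**Figure D2:**
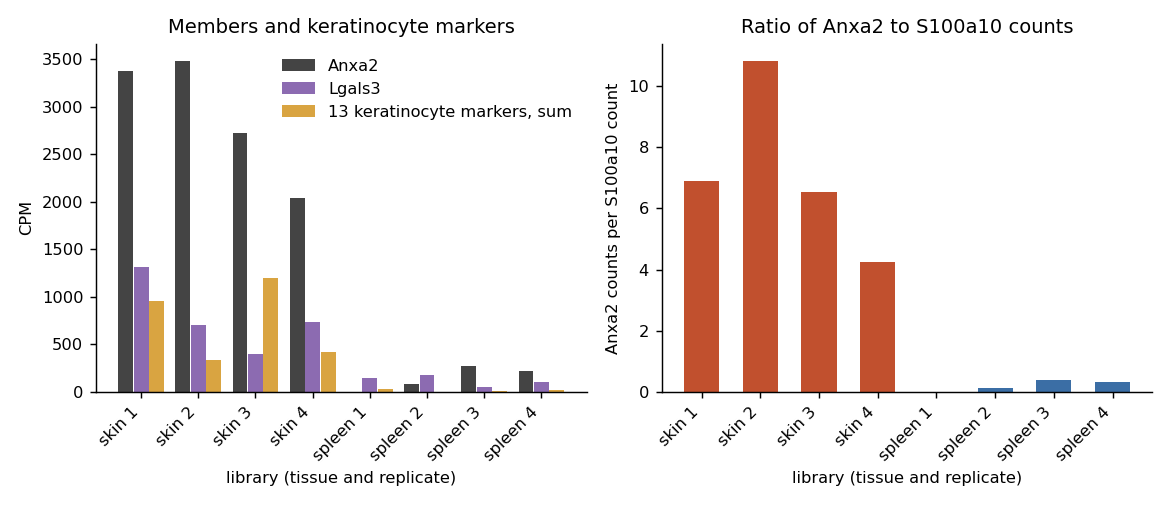
Left, CPM of Anxa2 and Lgals3 and the summed CPM of 13 keratinocyte markers in each library; right, Anxa2 counts per S100a10 count in each library, skin libraries left of spleen libraries. The keratinocyte sum is 338 to 1192 CPM in skin and 0 to 29.5 CPM in spleen, and the ratio of Anxa2 to S100a10 is 4.25 to 10.8 in skin and 0 to 0.385 in spleen.

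Vim, the intermediate filament gene, stood at 591, 1155, 891 and 532 CPM in skin libraries and at 219, 22.7, 162 and 92.2 CPM in spleen libraries. The tissues did not overlap, and the spleen values spread nearly 10 times. The means were 792 ± 288 CPM in skin libraries and 124 ± 85.2 CPM in spleen libraries (SD, n = 4 each), a 6.39-fold difference and a log2 fold change of 2.68 ± 0.63 (SE).

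Seen together, 7 of the 9 genes stood above the spleen in every skin library, against 6.11% of the 6920 genes tested. The 1 gene below it in every library, S100a10, compares with 13.4% of the genes tested, and in either direction 19.5% did not overlap. In the edgeR quasi-likelihood fit over all genes 5 of the 9 (Lgals1, Lgals3, S100a4, S100a6 and Vim) passed in the skin-high direction (Benjamini-Hochberg adjusted p under 0.05) and none lower, against 1.85% of all tested genes called higher, 3.58% called lower and 5.43% called in all. With each library left out in turn edgeR called 1 or 2 of the 9 higher, Lgals1 each time. Those fits called 47 to 102 genes higher and 17 to 111 lower, out of 7052 to 7935 tested. DESeq2 called 6 of the 9 higher and 0 lower, against 295 higher and 447 lower of 6734 genes. For limma-voom these were 6 higher and 1 lower, against 209 higher and 519 lower of 6920 genes. The 9 were picked on this contrast, so the calls on them are no test, and calls and shares alike support nothing. The median log2 fold change was 1.87 over the 9 genes and -0.29 over all genes tested. Together they took 0.688% to 0.899% of the counts in skin libraries and 0.219% to 0.276% in spleen libraries.

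The 9 genes did not share an order of the skin libraries. Skin replicate 1 was highest for Lgals1, Lgals3, S100a10 and S100a11 and lowest for S100a4 and S100a6. Skin replicate 4 was lowest for Lgals1, Anxa1, Anxa2 and Vim and highest for S100a4. Coefficients of variation ran from 11.5% (S100a6) to 65.1% (Anxa1) in skin, and from 8.32% (Lgals1) to 86.2% (Anxa2) in spleen.

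**Figure D3:**
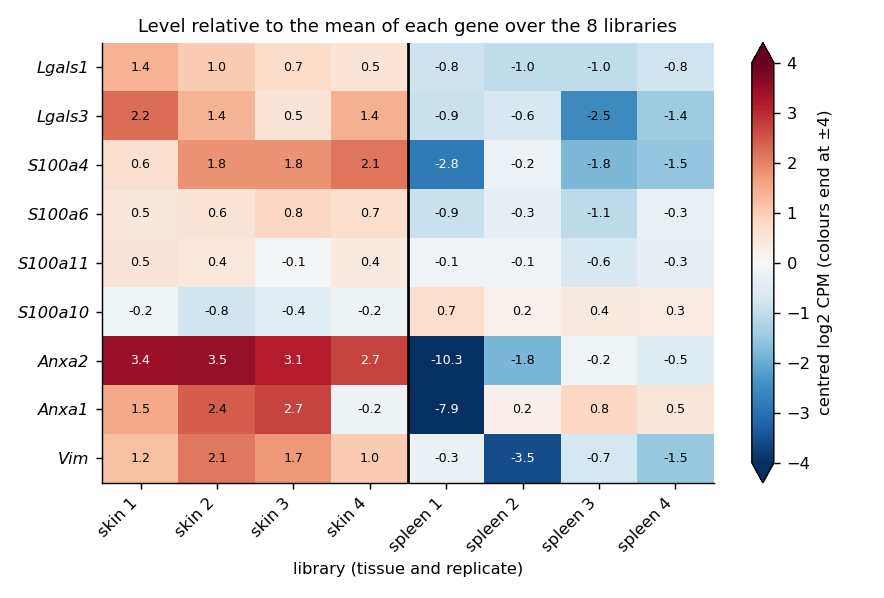
Log2 CPM of the 9 genes in the 8 libraries, skin left and spleen right, each gene centred on its own mean; colours end at ±4 and the numbers give the values. The dark cells of Anxa2 and Anxa1 in spleen replicate 1 are counts of 0, and S100a10 runs against the other rows.

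Markers of other cell types were counted beside these levels. The 13 keratinocyte markers summed to 952, 338, 1192 and 419 CPM in skin libraries and to 29.5, 0, 6.13 and 19.3 CPM in spleen libraries, and 9 of the 13 had a count in any skin library and 4 in any spleen library. Trp63, Dsp and Col17a1 were at 0 in all 8 libraries. In skin replicate 2, which had the lowest sum of the skin libraries, Krt15 stood at 148 CPM, Perp at 151 CPM and Sfn at 35.4 CPM, and Krt5 and Krt14 were at 0. Skin replicate 2 was the highest skin library for Anxa2 and Vim. Skin replicate 3, with the highest keratinocyte sum, was the lowest skin library for Lgals3 and S100a11 and the highest for S100a6 and Anxa1. The 11 fibroblast markers summed to 0 to 168 CPM in skin libraries and 0 to 152 CPM in spleen libraries, with Col1a2, Col3a1 and Pdgfra at 0 in all libraries. The 10 macrophage markers summed to 0 to 54.8 CPM in skin libraries and 0 to 40.6 CPM in spleen libraries, with Emr1, C1qb and Mrc1 at 0 in all libraries. The 8 dendritic cell markers summed to 182 to 232 CPM in skin libraries and 21.7 to 234 CPM in spleen libraries, with Cd207, Flt3 and Batf3 at 0 in all libraries. Of this list Xcr1 did not overlap between the tissues, at 159, 80.8, 140 and 109 CPM in skin libraries and 0.195, 34.7, 0 and 18.1 CPM in spleen libraries. The 6 B cell markers had no count in skin libraries and summed to 31.5 to 166 CPM in spleen libraries, and the 6 erythroid markers summed to 0 to 2.12 CPM in skin libraries and 111 to 274 CPM in spleen libraries. The summed T and iNKT lineage markers were lower in every skin library (1988 to 2633 CPM) than in any spleen library (2859 to 3572 CPM). This sum, the keratinocyte, B cell and erythroid markers and Xcr1 moved with tissue, and their part in the levels of the 9 genes was not tested.

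Relatives were taken from lists of family members, drawn up with earlier results known. The lists leave out S100a2 and the keratins, the largest group of intermediate filament genes, of which some were counted above as keratinocyte markers. Of the 41 galectins, S100 genes, annexins and non-keratin intermediate filament genes listed, 21 had no count in any library, 9 were tested, 1 was called higher in skin and 0 lower (edgeR; 2 higher and 0 lower at an unadjusted p under 0.05, 2 higher and 0 lower with DESeq2, and 0 higher and 1 lower with limma-voom). Over all genes tested edgeR called 1.85% higher and 3.58% lower. The median log2 fold change of the 9 tested relatives was 0.33. Lgals9, galectin-9, a tandem-repeat lectin that binds the inhibitory receptor Tim-3, stood at 642 ± 245 CPM in skin libraries and 604 ± 164 CPM in spleen libraries (SD, n = 4 each; edgeR adjusted p = 0.998). Lgals8 had a count in 1 skin library, at 46.8 CPM, and 51.2 to 109 CPM in the spleen libraries (-2.74 on the log2 scale; edgeR adjusted p = 0.974). Without skin replicate 3, which held that count, its fitted difference was -12.30 (edgeR adjusted p = 0.0858), a value that depends on the prior count. Lgals8 was called lower by limma-voom (adjusted p = 0.0441), the alternatives running from 0.0441 to 1. S100a13, which helps to export signal-less proteins, stood at 95.9 ± 46.4 CPM in skin libraries and 76.2 ± 38.3 CPM in spleen libraries (edgeR adjusted p = 0.998).

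Of the other annexins 4 were tested and none passed (edgeR; 1 higher and 0 lower at an unadjusted p under 0.05, and 1 higher with DESeq2). The edgeR share over all tested genes was 1.85% higher and 3.58% lower. Anxa5, the phosphatidylserine-binding annexin used as a label of dying cells, came nearest. It stood at 299, 505, 414 and 145 CPM in skin libraries and at 95.8, 56.5, 125 and 72.4 CPM in spleen libraries, without overlap. The fitted difference was 1.96 ± 0.51 on the log2 scale (SE; edgeR adjusted p = 0.0593). It was called without skin replicate 4 (edgeR adjusted p = 0.0454) and by DESeq2 (adjusted p = 0.00237), the alternatives running from 0.00237 to 0.355. Anxa6 is an annexin with a doubled core domain. It stood at 1548 ± 432 CPM in skin libraries and 1255 ± 195 CPM in spleen libraries (SD, n = 4 each; edgeR adjusted p = 0.872), and the groups overlapped. Anxa7 (76.1 ± 88.6 against 73.2 ± 67.6 CPM) and Anxa11 (32.3 ± 27.0 against 16.3 ± 9.79 CPM, skin against spleen) did not pass either.

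Among the listed intermediate filament genes Lmna was called higher in skin. It encodes the A-type lamins of the nuclear lamina. Lmna stood at 4946, 4007, 4648 and 3183 CPM in skin, had no count in spleen replicates 1 to 3 and stood at 8.18 CPM in spleen replicate 4. Every skin library was far above every spleen library, and keratinocyte markers, summed to 338 to 1192 CPM in skin libraries and 0 to 29.5 CPM in spleen libraries, moved with tissue as well; their part in the level of Lmna was not tested. This gave a difference of 11.03 ± 2.09 on the log2 scale (SE; edgeR adjusted p = 0.0352). Without spleen replicate 4, the 1 spleen library with a count, the fitted difference was 18.08, which depends on the prior count, and the edgeR adjusted p was 9.80e-05, and leaving out any of the other 7 libraries lost the call (0.0516 to 0.0921); over all alternatives the adjusted p ran from 3.64e-06 to 0.25. Nefh, the other tested gene of the list, stood at 61.8 ± 62.3 CPM in skin libraries and 22.4 ± 29.7 CPM in spleen libraries and did not pass.

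**Figure D4:**
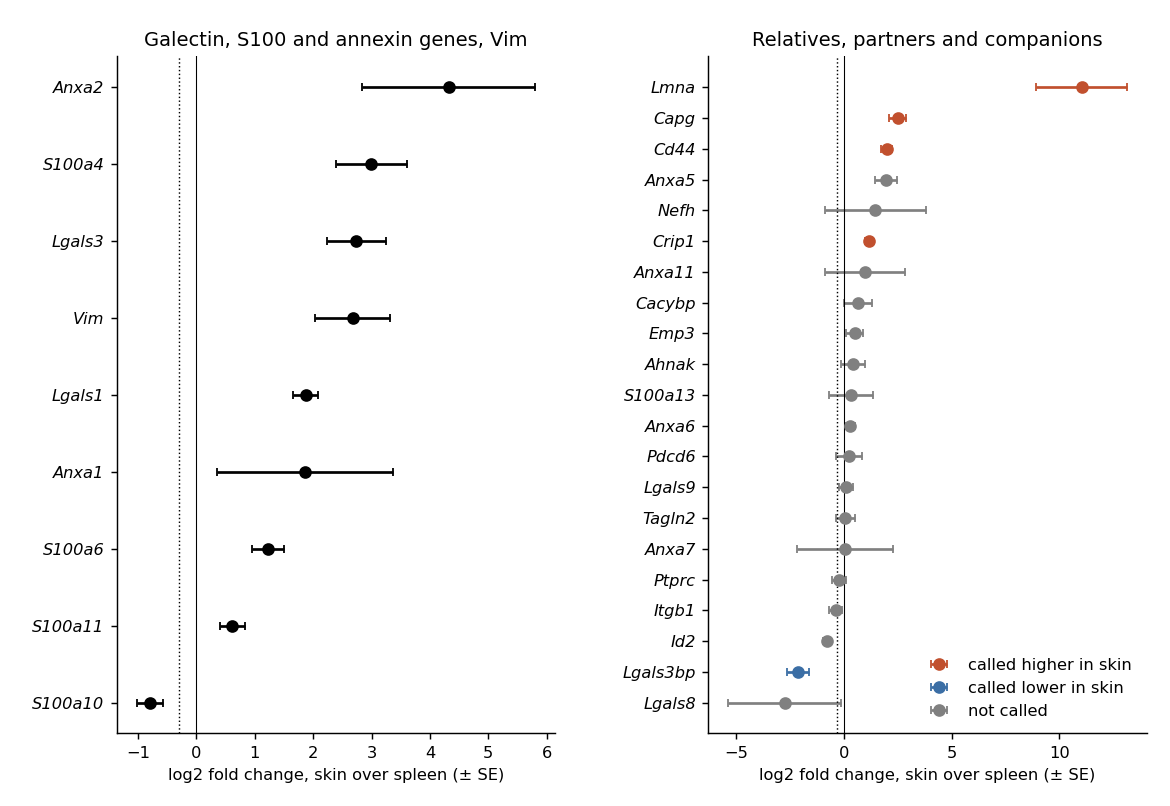
Fitted log2 fold change, skin over spleen, with its SE, for the 9 genes (left, a description) and for named relatives, partners and companions (right; the call is edgeR's at an adjusted p under 0.05). The dotted line is the median of all genes tested, -0.29; Anxa2 is the highest and S100a10 the lowest of the 9, and Lmna the highest on the right. Mgat5, at 0 in skin, is not drawn, nor are Myh9, Spn, Plec and Plp2.

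Of the binding partners and receptors 17 of 18 were in the table and 10 were tested. Of these 1 was called higher, 2 lower and 7 did not pass (edgeR), against 1.85% of all tested genes called higher and 3.58% called lower. This list was drawn up with earlier results of these data known, so its counts show no enrichment. Cd44, a hyaluronan receptor and a glycoprotein that galectins bind, stood at 836, 638, 1117 and 755 CPM in skin libraries and at 184, 174, 202 and 286 CPM in spleen libraries. It was higher in each skin library (1.98 ± 0.27 on the log2 scale, SE; edgeR adjusted p = 0.00808) and kept its call with each of the 8 libraries left out (edgeR adjusted p from 0.0111 to 0.0413; 6.27e-11 to 0.0589 over all alternatives). Lgals3bp, a secreted ligand of galectin-3, was lower in skin, at 74.6, 320, 149 and 113 CPM, against 669, 527, 1190.2 and 494 CPM in spleen. The groups did not overlap (-2.13 ± 0.51 on the log2 scale, SE; edgeR adjusted p = 0.048). Its call held without skin replicate 2 (edgeR adjusted p = 0.0328) and was lost when any of the other 7 libraries was left out (0.0877 to 0.137), and over all alternatives the adjusted p ran from 0.00251 to 0.231.

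Mgat5 encodes the branching enzyme that builds the N-glycans to which galectin-3 binds. It had no count in skin and 36.0, 7.63, 15.0 and 20.4 CPM in spleen. With a floor of 3 counts per skin library, skin levels were at least 51.0-fold lower, a bound for counting error only (edgeR adjusted p = 0.0473, lost without each of the 8 libraries at 0.0816 to 0.137, and 0.000741 to 0.355 over all alternatives). The bound does not cover the spread between libraries. Mgat5 was not alone in this pattern. Abcb8 and Acsf2, for example, had higher spleen means, no count in any skin library and the same edgeR adjusted p of 0.0473. How often genes at the level of Mgat5 were at 0 in skin libraries was not tested. Ahnak, the giant protein that docks on the complex of Anxa2 and S100a10, stood at 251 ± 66.9 CPM in skin libraries and 185 ± 117 CPM in spleen libraries (SD, n = 4 each; edgeR adjusted p = 0.998). Ptprc, which encodes CD45, a galectin-1 counter-receptor, stood at 716 ± 260 CPM in skin libraries and 837 ± 225 CPM in spleen libraries (edgeR adjusted p = 0.998). Cacybp, which encodes the calcyclin-binding protein, and Pdcd6, a calcium sensor that binds Anxa7 and Anxa11, did not pass either. Myh9, a non-muscle myosin gene, stood at 59.2 ± 40.5 CPM in skin libraries and 182 ± 54.4 CPM in spleen libraries. Its tissues did not overlap, and it did not pass (edgeR adjusted p = 0.526). Spn and Plec overlapped between the tissues and did not pass. Fpr1 and Fpr2, the formyl peptide receptors for Anxa1, had no count in any library.

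A list of 7 genes that often accompany S100a4, S100a6 and Lgals1 in effector and memory lymphocytes was tested in full. In edgeR 2 were called higher in skin, 0 lower and 5 did not pass, against 1.85% of all tested genes called higher and 3.58% lower. At an unadjusted p under 0.05 (edgeR) 3 were higher and 1 lower, and with DESeq2 2 were higher and 1 lower. The list was drawn up with earlier results of these data known, so these counts show no enrichment. Crip1, a small LIM-domain protein, stood at 782, 793, 794 and 876 CPM in skin libraries and at 400, 314, 364 and 363 CPM in spleen libraries. Its tissues were far apart for their narrow spread (1.17 ± 0.19 on the log2 scale, SE; edgeR adjusted p = 0.0148). Crip1 was lost without spleen replicates 2, 3 or 4 (edgeR adjusted p = 0.0631, 0.0722 and 0.0635), and over all alternatives the adjusted p ran from 2.96e-08 to 0.136. Capg, which caps actin filaments in a calcium-dependent way, stood at 1199, 1436, 950.0 and 849 CPM in skin libraries and at 340.4, 111, 134 and 196 CPM in spleen libraries. The difference was 2.50 ± 0.39 on the log2 scale (SE; edgeR adjusted p = 0.0143), and the call was lost without spleen replicates 3 or 4 (0.0544 and 0.0515), with adjusted p from 4.72e-07 to 0.0544 over all alternatives.

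The other companions did not pass. Plp2 had the largest fitted difference of the list, at 348 ± 235 CPM in skin libraries and 14.1 ± 22.2 CPM in spleen libraries. Its tissues did not overlap (4.63 ± 2.01 on the log2 scale, SE). The edgeR adjusted p was 0.384, and 0.054 to 0.628 over all alternatives. Id2, an inhibitor of E proteins, stood at 1321 ± 259 CPM in skin libraries and 2258 ± 399 CPM in spleen libraries (edgeR adjusted p = 0.05 after rounding, not under the threshold) and did not overlap between the tissues. It was called lower without skin replicate 4 (edgeR adjusted p = 0.03), with upper-quartile scaling (0.048), with a filter of 5 CPM in 4 libraries (0.0461) and by DESeq2 (adjusted p = 0.0138), the alternatives running from 0.0138 to 0.211. Itgb1, the beta 1 integrin chain, stood at 407 ± 119 CPM in skin libraries and 530 ± 133 CPM in spleen libraries, Tagln2, an actin-binding protein, at 991 ± 626 and 941 ± 182 CPM, and Emp3, a small membrane protein, at 284 ± 109 and 199.98 ± 38.0 CPM.

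The genes whose profile over the 8 libraries lay nearest to the mean profile of the 9 genes were Gpx4, Tpm4, Fam107b, Gm10094 and Reep5. The mean profile was lowest in spleen replicate 1, at -2.60 against -0.82 to -0.62 in the other spleen libraries. Zeros of Anxa1 and Anxa2 in that library enter this mean. All 5 named genes also had their lowest level there, so the list leans on those zeros. Likeness was the root mean square difference of gene-centred log2 CPM, which was 0.33 for Gpx4, 0.37 for Tpm4 and 0.42 for Reep5, and for the 9 genes themselves from 0.69 (Lgals1) to 3.10 (Anxa2). Gpx4, which detoxifies lipid peroxides, stood at 721 ± 72.1 CPM in skin libraries and 174 ± 55.9 CPM in spleen libraries. Tpm4, a tropomyosin of the actin cytoskeleton, stood at 2412 ± 504 CPM in skin libraries and 458 ± 153 CPM in spleen libraries (SD, n = 4 each). All 5 were higher in every skin library than in any spleen library, as the measure selects, so no test is given.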

How the data were processed

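Per the labels' protocols, RNA was purified with a micro-scale column kit, full-length cDNA was made with SMART-Seq v4, which does not mark strand, and paired-end reads of 75 bp were sequenced on an Illumina NextSeq. The deposited values are RSEM expected counts per gene, not scaled for depth, and the submitters' processing notes name FastQC, DESeq2 1.16.1 and mm9 besides; the aligner is not given in the sources used here. RSEM shares reads between genes they match. Counts of Lgals1, Lgals3, S100a6, S100a10, S100a11 and Anxa2 were not whole (off by more than 0.005) in 7 or 8 libraries. Those of Vim were not whole in 6 libraries, those of S100a4 in 3 and those of Anxa1 in 2. Part of the reads of these genes may belong to near-identical copies.

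Columns were mapped by the names in the labels; 0 columns were left unused. Expected counts were rounded, filterByExpr kept 6920 genes, libraries were scaled by TMM, and skin was set against spleen with edgeR 4.0.16 (robust quasi-likelihood, limma 3.58.1, R 4.3.3; adjusted p under 0.05). CPM use TMM-scaled totals, and log2 CPM a prior count of 2. A floor of 3 counts equals 0.292 to 0.454 CPM. SE is the log2 fold change over the root of F. The fit was also run on simulated counts, whose outcome is not given here. A gene that did not pass may still differ between the tissues. The members and lists were chosen with earlier results of these data known. Named are the 9 genes, every called gene of a list with up to 4 of its most abundant tested genes, and 5 genes of like profile; others were named after their values were seen. Alternatives were other scalings, filters, DESeq2 1.42.0, limma-voom, a replicate block, removal of marker genes and each library left out. No libraries agreed within sampling noise (smallest chi-square per degree of freedom 112).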

Additional observations from a re-analysis of the deposited data

Results flagged for a closer look

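In 4 of 71 groups of 4 libraries 1 library stood apart from the other 3 in CPM, with a gap past Dixon's critical value for 4 samples. Chance flags about 1 in 20 groups of normally distributed values. Where the other 3 libraries are at 0, as for Lgals8 and Lmna, the gap always fills the whole range and the flag is fixed. Lgals8 stood at 46.8 CPM in skin replicate 3 and at 0 in the other skin libraries. S100a13 stood at 27.0 CPM in skin replicate 2 and at 110 to 126 CPM in the others. Lmna stood at 8.18 CPM in spleen replicate 4 and at 0 in the other spleen libraries. Crip1 stood at 876 CPM in skin replicate 4 and at 782 to 794 CPM in the others. None of the 9 genes was among them.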

How the results depend on the processing

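All 9 genes kept the sign of their log2 fold change in all 16 alternatives, each within 1 SD of the replicate spread. For Anxa1 and Anxa2 that limit tells little, as their log2 SD in spleen was 4.23 and 4.78. The median of the 9 genes, 1.87, was 1.80 to 2.20 with 1 library left out and 2.36 with the replicate block. It moved by at least 1 SD of its own spread without skin replicate 4 (2.16), without spleen replicate 3 (2.20) and with the replicate block. Skin and spleen libraries share numbers but not deviations (correlations of same-numbered libraries 0.0017 to 0.011), so the numbers were not taken as pairs. With the replicate block 36 genes were higher and 14 lower, and 0 relatives or partners were called in either direction (8 at an unadjusted p under 0.05, edgeR). Over all genes, 128 higher and 248 lower became 295 and 447 with DESeq2, 209 and 519 with limma-voom, and 97 and 48 with no filter, which also left 0 relatives lower (edgeR; 14 in either direction at an unadjusted p under 0.05; DESeq2 gave 3). Leaving out 1 library gave 47 to 102 higher and 17 to 111 lower genes, and 1 to 4 relatives higher and 0 to 1 lower, against 4 and 2. Lgals3bp was lost with upper-quartile scaling (edgeR adjusted p = 0.0525) and, like Lmna, with limma-voom and with no filter. The cause was not tested. Zeros at the level of Anxa1 limited what single spleen libraries show.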

Other observations

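Relatives too sparse to be tested, named after their values were seen, had counts in few libraries. Anxa4 stood at 152 and 190 CPM in skin replicates 1 and 2 and at 7.73 CPM in spleen replicate 4, with no count in the other 5 libraries. Anxa8 (166 CPM) and Lgals7 (50.4 CPM), both known from stratified epithelium, had a count in skin replicate 1 alone, and S100a7a, a skin S100 gene, in skin replicate 4 alone (40.9 CPM). Keratinocyte markers summed to 952 CPM in skin replicate 1 and 419 CPM in skin replicate 4. S100a8 and S100a9, the calprotectin genes of neutrophils, had no count in skin; S100a8 stood at 23.3 and 4.46 CPM in spleen replicates 2 and 4, and S100a9 at 15.0 and 10.6 CPM in spleen replicates 1 and 4.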
